A study of Mus musculus with 6 samples.

Results

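The enzymes described here are 10 members of the glycolytic pathway downstream of glucose phosphorylation, taken by gene symbol: Gpi1, Pfkl, Pfkm, Pfkp, Aldoa, Tpi1, Gapdh, Pgk1, Eno1 and Pkm. All 10 were found among the 55401 genes of the count table and all 10 passed the filter on low counts. The RNA was that of islets of male C57BL/6 mice, about 20 weeks old, and every animal carried floxed alleles of Pdgfra, the platelet-derived growth factor receptor alpha gene (genotype Pdgfrafl/fl). The 3 control libraries were from Pdx1-Cre- animals. The 3 libraries labelled KO were from Pdx1-Cre+ animals, in which the promoter of the pancreatic lineage factor Pdx1 drives Cre, so recombination is not limited to beta cells. No group had Cre without the floxed gene, and Cre and Pdgfra loss cannot be told apart. The comparison asks how islet transcripts differ between these genotypes, and the title of the series names glucose metabolism and beta-cell death.

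Glycolysis converts glucose to pyruvate in the cytosol. In beta cells the enzymes below the first phosphorylation carry the carbon on, and pyruvate goes mostly to the mitochondria because lactate dehydrogenase and lactate export are kept low. The resulting rise in the ATP to ADP ratio closes potassium channels and triggers insulin release. Phosphofructokinase is the main regulated step among them, and aldolase, triose phosphate isomerase and the enzymes of the lower pathway are usually abundant.

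Library totals ran from 15026094 to 25299689 counts. Although beta cell is the labelled cell type and markers of beta cells were high in every library, markers of acinar cells, which make digestive enzymes, took 16.8% to 39.0% of counts. A ribosomal RNA locus took 3.32% to 4.51% of counts in controls and 5.36%, 12.6% and 18.5% in KO 1, 2 and 3; only the KO columns of the table have names with an added suffix, whose meaning is not given. Pdgfra, summed over all exons, ran from 3.37 to 5.13 CPM in controls and from 1.56 to 4.76 CPM in KO (edgeR adjusted p = 0.869), so it gave no check of the labels. CPM here are counts scaled to library size with TMM factors. In whole islets, fewer cells of a type and less RNA per cell cannot be told apart.

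None of the 10 enzymes passed the test between genotypes, and the intervals of their differences were narrow. By edgeR's quasi-likelihood test 10 of 14212 genes passed at an adjusted p of 0.05 (0.0704% of genes), and 0 of the 10 enzymes did. Their adjusted values ran from 0.719 to 0.991. An unadjusted p under 0.05 was reached by 1048 genes (7.37%) and again by 0 of the enzymes. DESeq2 and limma-voom also called 0 of them. Log2 fold changes of KO over control ran from -0.20 for Gapdh to 0.10 for Pfkm. The 95% intervals of all 10 lay between -0.44 and 0.30 on the log2 scale, that is between 0.736-fold and 1.23-fold of the control level. The median of the 10 was -0.11, beside -0.01 over all genes tested. Values were negative for 7 enzymes, where 52.2% of all genes were negative, and positive for the 3 phosphofructokinase genes alone.

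**Figure D1:**
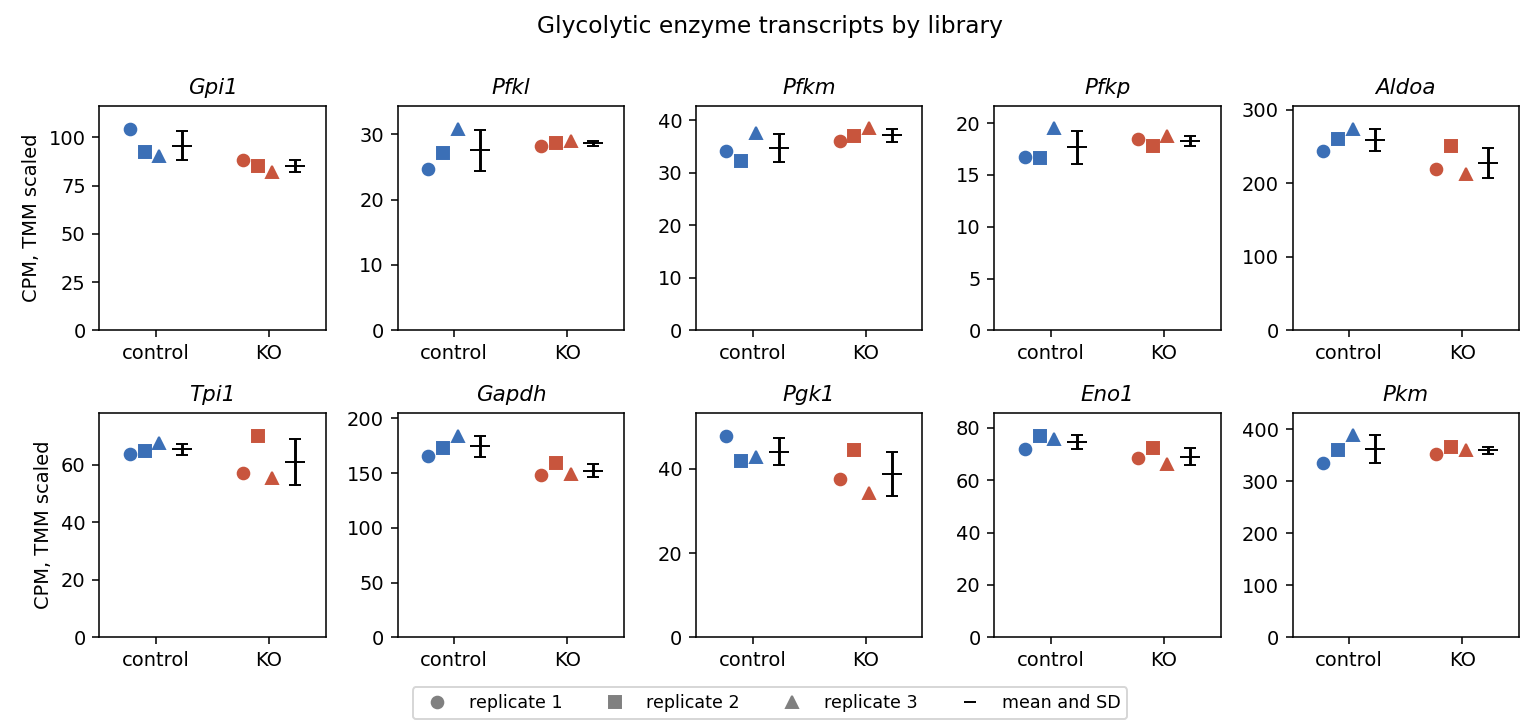
Level of each glycolytic enzyme transcript in CPM (TMM scaled, y axes from 0) in the 3 control and the 3 KO libraries, with symbols for the replicate number and black bars for mean and SD. Gpi1 and Gapdh are the 2 enzymes whose KO libraries all lie below every control, and in the other 8 panels the groups overlap.

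Glucose-6-phosphate isomerase, encoded by Gpi1 (ENSMUSG00000036427.5, chromosome 7, 34201330 to 34230336, GRCm38), makes fructose 6-phosphate, the substrate of phosphofructokinase. Its level was 104.5, 92.2 and 90.5 CPM in controls 1, 2 and 3 and 88.1, 85.3 and 81.8 CPM in KO 1, 2 and 3. Every KO library lay below every control, a pattern shown by 5.94% of all genes tested and by 2 of the 10 enzymes. The gap between the lowest control and the highest KO library was small, and the log2 fold change was -0.17 with a 95% interval of -0.38 to 0.04 (edgeR, SE 0.09, adjusted p = 0.741). Control 1 was the highest library, and without it the value was -0.10.

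Phosphofructokinase adds the second phosphate and has liver, muscle and platelet type subunits, which form mixed tetramers. Pfkm, the muscle type gene (chromosome 15, 98092589 to 98132451), had 34.2, 32.3 and 37.6 CPM in controls and 36.0, 37.0 and 38.5 CPM in KO. Control 3 lay within the range of the KO libraries, and the log2 fold change was 0.10 with a 95% interval of -0.11 to 0.30 (edgeR, SE 0.09, adjusted p = 0.825). It was 0.05 without control 2, 0.16 without control 3 and 0.03 with the ribosomal RNA level as a covariate. The share of that RNA was higher in every KO library than in any control, so the covariate overlaps with genotype. The SE of Pfkm with it was 0.15. Pfkl, the liver type gene (chromosome 10, 77986947 to 78010083), had 24.6, 27.1 and 30.9 CPM in controls and 28.2, 28.6 and 29.0 CPM in KO. The controls spread on both sides of the 3 KO libraries, which lay close together. Pfkp, the platelet type gene (chromosome 13, 6579768 to 6648777), had 16.8, 16.7 and 19.5 CPM in controls and 18.4, 17.8 and 18.7 CPM in KO. For Pfkl and Pfkp the log2 fold change was 0.05 each (SE 0.10 each). Pfkl stood at -0.02 without control 1, where its sign turned, at 0.14 without control 3 and at 0.07 with the ribosomal RNA covariate. With the acinar marker level as a covariate Pfkl and Pfkp stood at 0.01 and 0.02. Pfkp stood at 0.01 without control 1 or control 2, at 0.13 without control 3 and at 0.03 without KO 3.

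Aldolase A and triose phosphate isomerase split the hexose bisphosphate and interconvert the triose phosphates. Aldoa (chromosome 7, 126795234 to 126800751) had 243.4, 260.3 and 273.1 CPM in controls and 219.3, 249.9 and 212.5 CPM in KO. KO 2 lay among the controls while KO 1 and KO 3 lay below all of them, and the log2 fold change was -0.19 with a 95% interval of -0.44 to 0.06 (edgeR, SE 0.11, adjusted p = 0.744). Tpi1 (chromosome 6, 124810586 to 124814296) had 63.6, 64.6 and 67.5 CPM in controls and 57.0, 69.9 and 55.3 CPM in KO. Here KO 2 was the highest of all 6 libraries and KO 1 and KO 3 the lowest, so the controls fell within the KO range. The log2 fold change was -0.11 (SE 0.11), and it was -0.06 without KO 1, -0.22 without KO 2, -0.04 without KO 3 and -0.16 with the ribosomal RNA level as a covariate.

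Glyceraldehyde-3-phosphate dehydrogenase makes NADH, and its transcript is a common reference in PCR assays. Gapdh (ENSMUSG00000057666.18, chromosome 6, 125161715 to 125166467) had 165.8, 173.3 and 184.4 CPM in controls and 148.0, 159.6 and 149.7 CPM in KO. All KO libraries lay below all controls, as for Gpi1. Its log2 fold change of -0.20 was the most negative of the 10 (SE 0.10, 95% interval -0.41 to 0.02), and it did not pass (edgeR adjusted p = 0.719).

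Phosphoglycerate kinase yields the first ATP of the pathway. Pgk1 (chromosome X, 106187100 to 106203699) had 47.7, 41.8 and 42.8 CPM in controls and 37.5, 44.6 and 34.2 CPM in KO. As with Aldoa, KO 1 and KO 3 were the lowest libraries and KO 2 lay within the controls. The log2 fold change was -0.19 (SE 0.11, edgeR adjusted p = 0.745), and it was -0.30 without KO 2 (adjusted p = 0.501 by edgeR) and -0.10 without KO 3.

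Enolase 1, the widely expressed enolase, and pyruvate kinase M carry out the last steps to pyruvate. Eno1 (chromosome 4, 150236721 to 150248879) had 71.7, 76.7 and 75.5 CPM in controls and 68.3, 72.4 and 66.3 CPM in KO. Only KO 2 reached above the lowest control, and its log2 difference was -0.11 (SE 0.09), the 95% interval being -0.31 to 0.08. Pkm (chromosome 9, 59656368 to 59679375) had 335.9, 359.1 and 389.1 CPM in controls and 352.5, 366.2 and 360.6 CPM in KO. The KO libraries lay inside the control range, and Pkm had the value nearest to 0 of the 10, at -0.01 (SE 0.11, 95% interval -0.25 to 0.24, edgeR adjusted p = 0.991). With a library left out it lay between -0.06 (without control 1) and 0.05 (without control 3), and its sign was positive in 3 of the 14 other analyses that were run. The gene table sums the M1 and M2 splice forms of Pkm, and their balance was not analysed here.

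The spread between libraries of one group was small for these genes. The SD within groups, on the log2 scale, ran from 0.06 to 0.15 among the 10, and its median was 0.13 over the 7226 genes with a control mean of at least 10 CPM. Measured as the mean log2 deviation of the 10 from their averages, control 3 was highest at 0.10 and KO 3 lowest at -0.08, and KO 2, at 0.03, lay above control 1 and control 2, at 0.002 and 0.008. The 3 phosphofructokinase genes and the other 7 enzymes took different courses in some libraries. The phosphofructokinase mean minus the mean of the other 7 was -0.17, -0.16 and 0.01 in controls 1, 2 and 3, and 0.12, -0.01 and 0.22 in KO 1, 2 and 3. This grouping was chosen after the values were seen, so it has no test, and control 3 lay above KO 2.

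Together the 10 enzymes took 0.0919%, 0.121% and 0.145% of all counts in controls and 0.108%, 0.0994% and 0.110% in KO. The KO libraries lay within the control range (exact two-sided permutation test, p = 0.5, where 3 against 3 cannot go below 0.1). The 95% Wilson interval for the first control was 0.0904% to 0.0935%, which covers counting error only. With acinar markers and the ribosomal RNA locus taken out of the total, the shares were 0.162%, 0.182% and 0.198% in controls and 0.168%, 0.165% and 0.170% in KO (exact two-sided permutation p = 0.4). Control 1 had both the lowest share of glycolytic transcripts and the highest share of acinar markers, at 39.0% of counts, and the part of acinar RNA in these shares was not tested.

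Per kilobase of exon, the level of control libraries fell in the order Aldoa, Pkm, Gapdh, Tpi1, Pgk1, Gpi1, Eno1, Pfkm, Pfkl and Pfkp. Aldoa stood at 88.9 ± 5.1 CPM per kilobase and Pkm at 72.3 ± 5.3 (SD, n = 3). In controls those 2 did not overlap, while in KO Aldoa ran from 73.0 to 85.8 and Pkm from 70.5 to 73.2 CPM per kilobase. Gapdh stood at 42.2 ± 2.3, Tpi1 at 23.7 ± 0.7 and Pgk1 at 19.7 ± 1.4 CPM per kilobase in controls. Gpi1, at 14.8 ± 1.2, and Eno1, at 13.9 ± 0.5, overlapped between control libraries. The phosphofructokinase genes were the lowest, with Pfkm at 10.4 ± 0.8, Pfkl at 4.13 ± 0.47 and Pfkp at 1.32 ± 0.12 CPM per kilobase.

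This order depends on the length used. The deposited lengths sum all annotated exons, 13401 bases for Pfkp and 4133 for Gapdh, while the longest transcript linked to RefSeq has 4145 and 1420 bases. With RefSeq transcript lengths the first 4 enzymes kept their order, at 167, 149, 123 and 40.6 CPM per kilobase. Eno1 and Gpi1 then stood at 36.8 and 33.2 CPM per kilobase and came before Pgk1, at 24.2. The phosphofructokinase genes stayed last in the order Pfkm, Pfkl and Pfkp, at 12.1, 7.39 and 4.26 CPM per kilobase.

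Within a reaction, the share of each isozyme does not depend on scaling between libraries. The size of a share does depend on the length used, and all isozyme shares given here use the deposited exon lengths. With RefSeq lengths Pfkm, Pfkl and Pfkp stood at 12.1, 7.39 and 4.26 CPM per kilobase in controls. That gives Pfkp a larger share and Pfkm a smaller one than those below. Pfkm gave 67.4%, 64.6% and 64.9% of phosphofructokinase transcripts per kilobase in controls and 65.8%, 66.4% and 66.8% in KO. The KO libraries lay inside the control range. Pfkl gave 26.1 ± 1.5% in controls and 25.5 ± 0.4% in KO, and Pfkp gave 8.31 ± 0.08% and 8.14 ± 0.23% (SD over 3 libraries). Of 10 shares compared between genotypes over the pathway, none could pass at this sample size, and the exact two-sided permutation p of the 3 phosphofructokinase shares were 0.6, 0.5 and 0.3 (adjusted over the 10, 0.75, 0.714 and 0.714).

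Aldoa gave 98.1 ± 0.4% of aldolase transcripts per kilobase in controls and 97.5 ± 0.2% in KO (SD over 3 libraries). The KO libraries, at 97.3% to 97.6%, lay below the controls, at 97.8% to 98.6%, and that gap was smaller than the counting interval of a library, up to 0.549 percentage points to either side (exact two-sided permutation p = 0.1, adjusted p = 0.5). Pkm gave 96.7 ± 0.2% and 96.8 ± 0.6% of pyruvate kinase, the remainder being Pklr, the liver and red cell gene. Eno1 gave 70.0 ± 2.5% and 68.1 ± 1.5% of enolase in controls and KO, and most of the remainder was Eno2, the neuronal type, at 22.9 ± 3.0 CPM in controls. Gapdh had 99.66% to 100% of its reaction, where the sperm form Gapdhs had at most 7 counts in a library, and Pgk2, the testis form of phosphoglycerate kinase, had 0 counts in all 6 libraries.

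**Figure D2:**
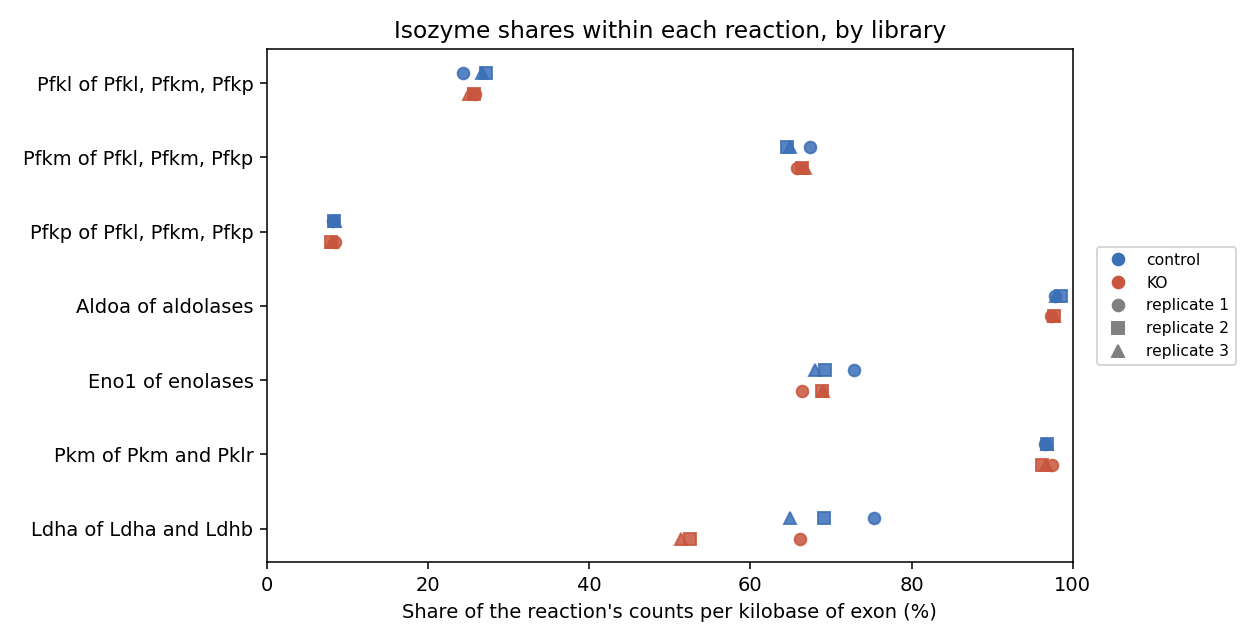
Share of a reaction's counts per kilobase of exon that each isozyme gave (x axis, percent), with 1 symbol per library in blue for control and red for KO. The phosphofructokinase, enolase, pyruvate kinase and Ldha shares of the genotypes overlap. The Ldha share is 65.0% to 75.4% in controls and 51.4% to 66.1% in KO. The Aldoa share does not overlap, at 97.8% to 98.6% in controls and 97.3% to 97.6% in KO.

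At the end of the pathway the isozyme shares moved more from library to library. Ldha, which is kept low in beta cells, gave 75.4%, 69.2% and 65.0% of lactate dehydrogenase in controls and 66.1%, 52.5% and 51.4% in KO. KO 1 lay above control 3 (exact two-sided permutation p = 0.2, adjusted p = 0.667). Acinar markers took 39.0%, 30.3% and 21.9% of counts in controls and 30.2%, 27.2% and 16.8% in KO. The part of acinar RNA in the Ldha share was not tested.

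The other genes of the pathway gave the same count of calls, 0 of 68 tested, in 5 lists of enzymes, regulators, transporters and branches. Of the other glycolytic enzymes 10 of 15 were tested, with a median log2 fold change of -0.003. Among those with the smallest p was Bpgm, which makes 2,3-bisphosphoglycerate, at -0.24 (SE 0.10, edgeR adjusted p = 0.671). Hkdc1, a hexokinase domain protein, was also among them, at -0.63 (SE 0.28, edgeR adjusted p = 0.682), or -0.40 without control 1. Its level was low, at 2.23 ± 0.65 CPM in controls and 1.39 ± 0.24 CPM in KO.

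The list of pyruvate and NADH fate held the gene with the smallest p of the whole pathway, Gpd2. All 23 genes were tested, 9 with positive and 14 with negative values, and the median was -0.05. Gpd2, the mitochondrial glycerol phosphate dehydrogenase that takes up electrons of glycolytic NADH, had 85.4, 102.2 and 105.2 CPM in controls and 135.4, 127.5 and 150.6 CPM in KO. Each KO library lay above each control, as did 7.94% of all genes tested. Its log2 difference of 0.50 (SE 0.11), with a 95% interval of 0.24 to 0.75, missed the threshold over all genes (edgeR adjusted p = 0.353) and passed it with DESeq2 (0.49, adjusted p = 0.0427) and without the low-count filter (edgeR adjusted p = 0.0116). Got1, the cytosolic aspartate aminotransferase of the malate-aspartate shuttle, had 23.3, 24.4 and 21.2 CPM in controls and 15.7, 20.1 and 15.3 CPM in KO, with a log2 difference of -0.44 (SE 0.12, adjusted p = 0.519 by edgeR). Ldha had a value of -0.59 (SE 0.20, adjusted p = 0.591 by edgeR), with control 3 below KO 1. It stood at -0.38 without control 1, at -0.77 without control 3 and at -0.43 with the acinar marker level as a covariate (SE 0.11).

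**Figure D3:**
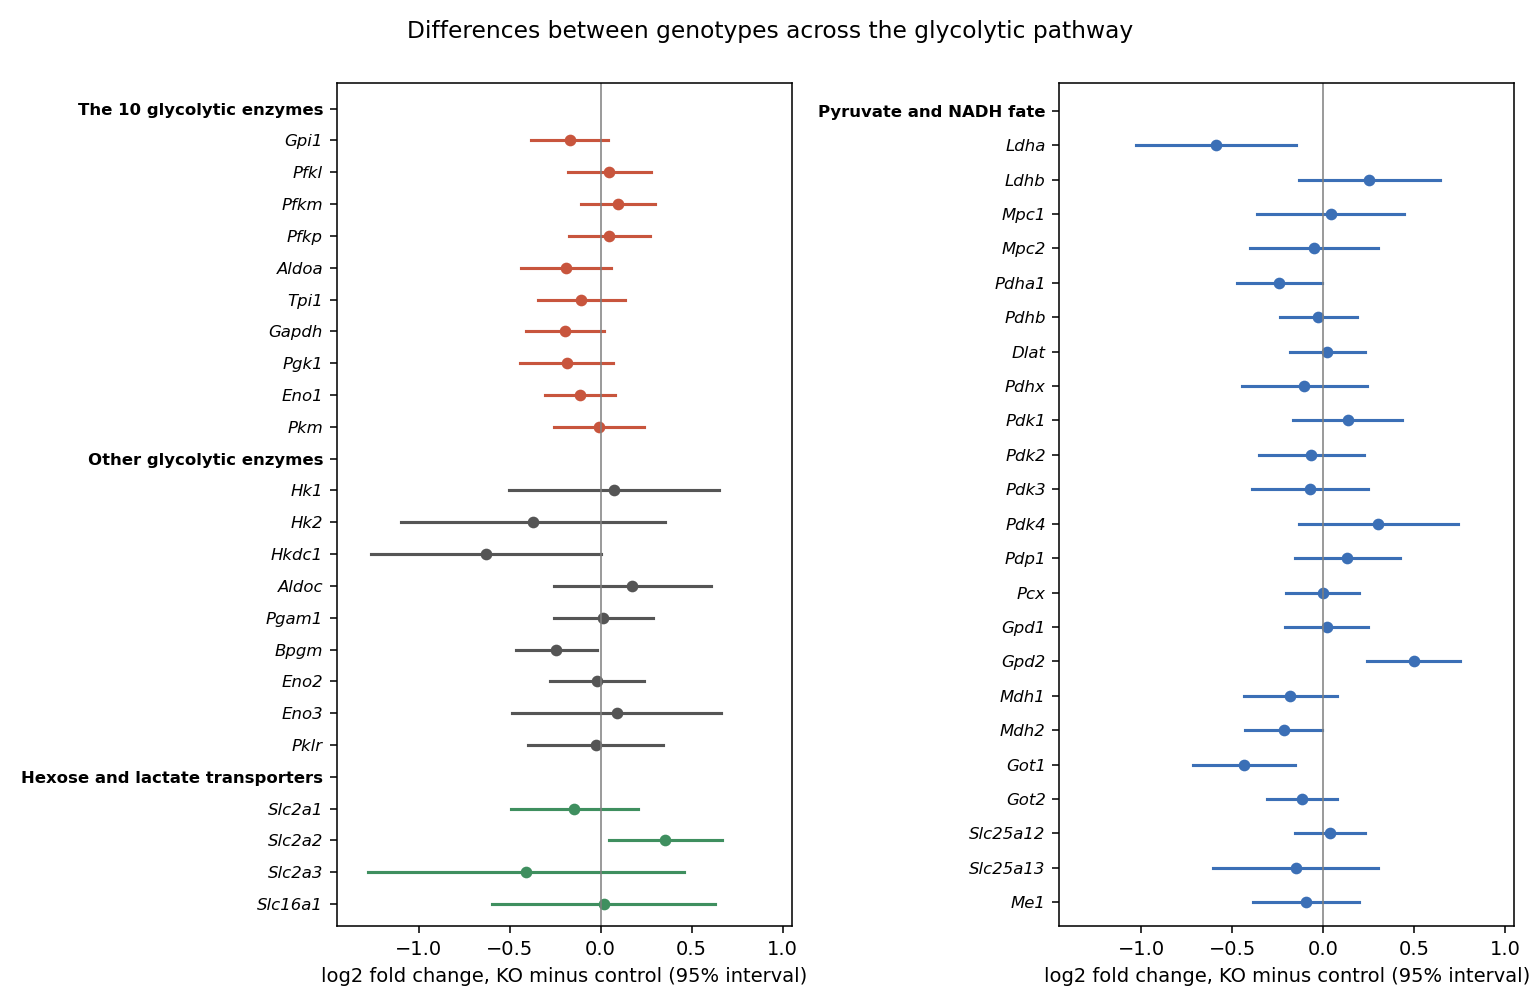
Log2 fold change of KO over control (x axis) with its 95% interval for tested genes of 4 lists, the 10 enzymes in red. The intervals of the 10 enzymes all include 0 and lie between -0.44 and 0.30, while Gpd2, at 0.50, and Ldha, at -0.59, lie farther out.

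Among regulators of glycolytic flux 14 of 16 genes were tested, 9 positive and 5 negative, with a median of 0.08. Txnip, a glucose-responsive inhibitor of glucose uptake, stood at 0.58 on the log2 scale (SE 0.16, adjusted p = 0.515 by edgeR). Pfkfb2, which makes the phosphofructokinase activator fructose 2,6-bisphosphate, had 0.27 (SE 0.11, adjusted p = 0.674), and Fbp2, a fructose bisphosphatase, -1.16 (SE 0.57, adjusted p = 0.715) at 1.01 ± 0.46 CPM in controls. Pfkfb2 stood at 0.04 with the ribosomal RNA level as a covariate, and Fbp2 at -0.70 without KO 3 and -1.65 without KO 2. Of 4 transporters tested, Slc2a2, through which mouse beta cells take up most glucose, had 0.36 (adjusted p = 0.637), Slc2a3 -0.41 (adjusted p = 0.828) and Slc2a1 -0.15 (adjusted p = 0.841). Slc2a3 stood at -0.10 without KO 2, -0.20 without control 3, -0.77 without KO 3 and -0.25 with the ribosomal RNA covariate. Slc2a1 stood at -0.04 without control 1, -0.24 without control 2 and -0.34 with that covariate. In the branches that leave glycolysis 14 of 17 genes were negative, with a median of -0.15. They included Phgdh, the first enzyme of serine synthesis, at -0.68 (SE 0.30), and Taldo1 and Rpe of the pentose phosphate pathway at -0.25 and -0.22 (adjusted p from 0.674 to 0.729). Phgdh had 112.8, 76.9 and 48.3 CPM in controls and 56.1, 59.6 and 32.4 CPM in KO, where acinar markers took 39.0%, 30.3% and 21.9% of counts in controls and 30.2%, 27.2% and 16.8% in KO. It stood at -0.34 without control 1, at -0.45 without KO 3 and at -0.94 without control 3. With the acinar covariate it stood at -0.40, with an SE of 0.08 (edgeR adjusted p = 0.138). The part of acinar RNA in the Phgdh level was not tested. Taldo1 stood at -0.16 without KO 3 and Rpe at -0.13 without control 1. Without the low-count filter, where 300 of 26297 genes tested were called, Txnip, Got1, Ldha and Phgdh also passed. The SE of Phgdh was then 0.12 in place of 0.30.

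Genes outside the pathway were ranked by how closely they followed the mean course of the 10 enzymes. Likeness was the root mean square difference of log2 CPM, each gene centred on its own mean, over the 6 libraries and 3069 named protein-coding genes whose mean log2 CPM was 5 or more. The 5 nearest genes were Oaz2, Ssrp1, Azi2, Map2k1 and Golph3, at 0.013 to 0.025. The enzymes themselves lay from 0.041 for Eno1 to 0.125 for Pgk1 from their own mean. Log2 fold changes of the 5 ran from -0.09 to -0.06, which follows from picking them on the same 6 libraries. Their distances are the smallest among 3069 genes, so they cannot be compared with those of the enzymes.

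Markers of other cell types were compared because they could carry glycolytic RNA of their own. Summed acinar markers ran from 182600 to 470100 CPM in controls and from 160000 to 310100 CPM in KO, with 17 of 17 log2 fold changes negative. Values were also negative for 7 of 7 fibroblast and 4 of 4 delta markers, and for 5 of 6 duct, endothelial and macrophage markers each. For beta cells 3 of 9 were negative, and for pericytes and smooth muscle 2 of 5. Summed fibroblast markers ran from 147 to 293 CPM in controls and from 52.8 to 228 in KO, lowest in KO 2, where endothelial markers were also lowest at 240.5 CPM. Markers of macrophages ran from 88.3 to 99.9 and from 79.1 to 92.9 CPM. Of the 3 adipocyte markers, Cfd had 0 counts in all libraries. Beta-cell markers summed to between 95910 and 125200 CPM in controls and between 103900 and 147500 in KO, highest in KO 2, the KO library with the highest Aldoa, Tpi1, Gapdh, Pgk1, Eno1 and Pkm. With the acinar marker level as a covariate the median of the 10 enzymes was -0.11, and 7 were negative as before. Gapdh stood at -0.21 in that fit (edgeR unadjusted p = 0.0288, adjusted p = 0.621). Beyond that, the part of cell composition in the enzyme levels was not tested.

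Processed copies of glycolytic genes are common in the mouse genome and can take reads from their parents. The 10 copies looked up by name, among them Eno1b, Aldoart1 and Gapdh-ps15, had at most 5 counts in any library, beside at least 209 for any of the 10 enzymes, and 6 of the copies had none. Gpi-ps and Tpi1-ps were sought and not found. Copies under symbols that do not carry the parent's name were not looked up, so their reads are not known. Reads that could map to both parent and copy may have been dropped or assigned to either, which is not given in the sources used here. Genes on the opposite strand share exon bases with Pfkp (Pitrm1, 748 bases), Gapdh (Iffo1, 68), Tpi1 (Spsb2, 34), Aldoa (Fam57b, 25) and Pfkm (Senp1, 18). On the same strand Gm49759 covers 767 bases (15.3%) of the exons of Pkm and Gm26513 341 bases (10.2%) of those of Pfkm, with at most 8 and 4 counts of their own in a library.

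The upstream sequences of 3 members are shown because they stand for the different courses seen above: Gpi1 lay lower in every KO library, Pgk1 varied most among the 10 around their mean, and Pfkm had the most positive value. Each is the 250 bases before the most upstream RefSeq start site on GRCm38.p6, read along the gene's strand. Capitals mark ACGTG, the core of hypoxia response elements, on either strand, and CACGTG, the E-box bound by MYC and carbohydrate response factors, which contains it.
Gpi1 (chr7:34230337-34230586, minus strand): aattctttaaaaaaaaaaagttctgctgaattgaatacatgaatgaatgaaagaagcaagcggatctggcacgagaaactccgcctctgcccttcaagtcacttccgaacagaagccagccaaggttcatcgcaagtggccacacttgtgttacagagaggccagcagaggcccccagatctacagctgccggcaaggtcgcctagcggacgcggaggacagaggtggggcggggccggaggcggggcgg
Pgk1 (chrX:106186850-106187099, plus strand): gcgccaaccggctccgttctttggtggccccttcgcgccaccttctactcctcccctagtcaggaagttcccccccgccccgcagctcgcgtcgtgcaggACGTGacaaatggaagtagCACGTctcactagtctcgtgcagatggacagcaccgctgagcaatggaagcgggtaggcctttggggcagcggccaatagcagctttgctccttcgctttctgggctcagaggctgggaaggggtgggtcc
Pfkm (chr15:98092339-98092588, plus strand): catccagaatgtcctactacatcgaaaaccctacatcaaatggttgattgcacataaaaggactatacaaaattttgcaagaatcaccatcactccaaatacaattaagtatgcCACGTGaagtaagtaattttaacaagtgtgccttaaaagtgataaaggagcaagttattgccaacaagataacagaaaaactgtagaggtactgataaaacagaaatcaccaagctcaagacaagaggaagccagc

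The Gpi1 window had no match, the Pgk1 window had 2 matches to ACGTG in opposite orientations, and the Pfkm window had a single CACGTG, which reads as ACGTG on both strands. Over the 10 enzymes, ACGTG was found in 2 windows and CACGTG in 1, and among the 27025 gene windows of the same length ACGTG was in 16.5% and CACGTG in 6.04%. GCGTG, the other form of the hypoxia core, was in 4 of the 10 windows (Pfkl, Pfkp, Gapdh and Eno1) and in 28.3% of all. These are matches of letters only. Hif1a, the hypoxia-inducible factor subunit, and Mlxipl, which encodes the carbohydrate response factor ChREBP, had log2 fold changes of -0.06 (SE 0.08) and 0.06 (SE 0.10). For Hif1a every KO library lay below every control, as for 5.94% of all genes tested. These are transcript levels, and the activity of the factors was not measured.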

How the data were processed

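RNA of 6 islet libraries was sequenced after an mRNA library kit, per the labels' protocols. The authors deposited raw read counts per gene with exon coordinates and summed exon length. STAR 2.7.9 and featureCounts 2.0.0 with GRCm38.p6 and mm10 are named in the submitters' processing notes. Annotation release, strand setting and multi-mapping reads are not named in the sources used here. Of 55401 identifiers 55141 received a symbol from a gene name table.

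Counts were tested with edgeR 4.0.16 (glmQLFit, glmQLFTest, R 4.3.3), TMM normalization, genotype as the only term, filterByExpr (minimum count 10, total 15) and Benjamini-Hochberg adjustment over 14212 genes at 0.05, two-sided. The titles number the mice without saying that the libraries are separate animals, and p-values reflect only the spread between libraries, which may be technical. No 2 libraries were duplicates (closest pair, chi-square 13.3 per degree of freedom). Shares were compared by exact permutation, with 95% Wilson intervals. Named beside the 10 enzymes were the 3 genes with the smallest p of each other list, their isozymes and the 5 genes nearest in profile (mean log2 CPM of at least 5). Hif1a and Mlxipl were named later. One gene that this rule takes is not reported here. Members and lists were chosen with earlier results of these data known. Alternatives were RLE, no low-count filter, DESeq2 1.42.0, limma-voom (limma 3.58.1), a replicate block, acinar and ribosomal RNA corrections and each library left out. The test was checked on simulated data. RefSeq lengths were added after seeing the data. Python 3.11.15, pandas 2.3.3, SciPy 1.17.1 and matplotlib 3.10.9 were used.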

Additional observations from a re-analysis of the deposited data

How the results depend on the processing

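None of the 10 enzymes passed at an adjusted p of 0.05 in any of the 14 alternatives, the lowest being 0.501, and 136 of 140 alternative values kept their sign. The exceptions were Pkm with limma-voom (0.0030), without control 3 (0.051) and without KO 1 (0.0058), and Pfkl without control 1 (-0.024). With a library left out Pkm ran from -0.057 to 0.051 and Pfkl from -0.024 to 0.14. The median of the 10 ran from -0.16 (without KO 2) to -0.06 (without KO 3). The 10 calls over all genes became 300 of 26297 genes tested without the low-count filter. They became 48 with DESeq2, 6 with limma-voom and 43 with the acinar covariate. There were 0 with the ribosomal RNA covariate (214 genes at an unadjusted p under 0.05) and 2 to 6 with a library left out. With the replicate block there were 36, none of them among the 10 enzymes. The share of ribosomal RNA was higher in every KO library than in any control, so its covariate overlaps with genotype. The SE rose with that covariate, from 0.09 to 0.16 for Gpi1. The 0 calls of that fit therefore do not show an absence of differences. Deviations from the group means correlated at 0.327, -0.191 and 0.278 between libraries with the same number, and at -0.358 to 0.188 between other numbers. The labels state no pairing, and the numbers were not taken as pairs in the main fit. With the replicate block the SE was 0.13 for Phgdh and 0.11 for Ldha, beside 0.30 and 0.20 without it. Neither gene passed with the block (edgeR adjusted p = 0.110 and 0.0908). The cause of the changes in the number of calls was not tested. Fits with a library left out also have fewer samples. Without the filter Gpd2, Txnip, Got1, Ldha and Phgdh passed (adjusted p of 0.0116, 0.00231, 0.0463, 6.44e-04 and 8.39e-06). Their SE in that fit lay between 0.12 and 0.13. With the filter the SE was 0.30 for Phgdh, 0.20 for Ldha and 0.16 for Txnip, and 0.11 and 0.12 for Gpd2 and Got1. The fit without the filter thus gave Phgdh and Ldha a smaller error than their spread between libraries gave in the main fit. The difference in the Pfkl share ran from -1.36 to 0.042 percentage points with a library left out, turning without control 2, and that in the Pkm share from -0.271 to 0.308, turning without control 1 (-0.061) and KO 1. The difference in the share of counts taken by the 10 enzymes ran from -0.0272 to -0.000563 percentage points with a library left out. With 3 libraries a group, the intervals given for each enzyme limit what can be said of its difference.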
